A study of Mus musculus with 8 samples.

Results

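The expression of 9 photoreceptor genes was compared between the cornea and the limbus of the mouse. They were Gnat1, Pde6a, Pde6b, Sag, Rcvrn, Prph2, Nrl, Crx and Opn1sw, taken by gene symbol for their known place in rods and cones, and all 9 were found among the 23420 named genes of the deposited table. All mice were wild type C57BL/6J animals of 8 weeks of age, with no treatment. The limbal rim, the ring at the corneal edge that holds the epithelial stem cells, and the corneal button inside it were cut apart under a dissecting microscope, and the pieces from 16 eyes went into a single pool for each tissue. The comparison was made by the study to describe the surroundings of the limbal stem cells. Although the labels list 4 samples of each tissue, the table holds 1 library of each, so no difference below has a replicate check and no test across replicates was made.

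Phototransduction is the conversion of light into a change of membrane voltage in the rods and cones of the retina. A light-activated pigment switches on the G protein transducin, transducin switches on a phosphodiesterase that breaks down cyclic GMP, and the fall in cyclic GMP closes the cation channels of the outer segment. Arrestin, recoverin and the cyclase activators end or tune the response, and the transcription factors Crx and Nrl keep the genes of the pathway on in photoreceptors. The cornea and limbus lie at the front of the eye and have no photoreceptors of their own in textbook anatomy.

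All 9 genes had more reads in the limbus than in the cornea, by 5.45-fold for Pde6a to 12.8-fold for Prph2. The median log2 ratio of limbus over cornea was 3.16, while the median over all 15572 genes with more than 3 reads in at least 1 library was 0.01. Summed over the 9 genes, there were 391 corneal and 3352 limbal reads, a 9.16-fold difference (95% interval, 8.25 to 10.2). Levels were low in both tissues. Together the genes came to 15.0 reads per 1000000 on named genes in the cornea and to 158 in the limbus.

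Promoter sequences are shown because the 9 genes were all on the limbal side and because the list holds Crx and Nrl, which bind such regions in photoreceptors. Each run gives the 250 bases before the transcription start in RefSeq on GRCm38.p6, read 5′ to 3′ on the strand of the gene. Capitals mark letters that match, on either strand, the Crx and Otx core TAATCC, its variant TAAGCC, the Maf and Nrl motif TGCTGAC or the Ret-1 motif CAATTAG. The 4 promoters below were picked so that each motif is seen at least once.
Sag, chr1:87803430-87803679, plus strand: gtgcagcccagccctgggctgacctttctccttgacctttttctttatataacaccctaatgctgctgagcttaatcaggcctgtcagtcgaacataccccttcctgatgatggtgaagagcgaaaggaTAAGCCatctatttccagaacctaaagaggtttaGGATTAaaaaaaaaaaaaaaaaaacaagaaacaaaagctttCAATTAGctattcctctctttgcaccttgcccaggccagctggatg
Crx, chr7:15879956-15880205, minus strand: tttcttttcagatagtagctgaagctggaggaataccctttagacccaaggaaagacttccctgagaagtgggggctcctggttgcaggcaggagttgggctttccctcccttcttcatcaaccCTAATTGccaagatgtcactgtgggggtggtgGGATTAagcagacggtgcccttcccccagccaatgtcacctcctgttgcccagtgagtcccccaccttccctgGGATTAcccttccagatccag
Pde6b, chr5:108388123-108388372, plus strand: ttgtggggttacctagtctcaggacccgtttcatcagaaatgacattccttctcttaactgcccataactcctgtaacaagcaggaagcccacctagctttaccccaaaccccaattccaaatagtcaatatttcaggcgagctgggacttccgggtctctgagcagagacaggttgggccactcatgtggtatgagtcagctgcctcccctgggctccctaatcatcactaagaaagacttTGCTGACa
Opn1sw, chr6:29380514-29380763, minus strand: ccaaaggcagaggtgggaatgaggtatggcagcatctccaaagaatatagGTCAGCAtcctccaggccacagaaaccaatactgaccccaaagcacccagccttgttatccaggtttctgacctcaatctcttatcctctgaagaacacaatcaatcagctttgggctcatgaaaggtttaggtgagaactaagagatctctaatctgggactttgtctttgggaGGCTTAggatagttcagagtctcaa

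Promoters of 6 of the genes were searched, and those of Gnat1, Pde6a and Rcvrn were not analysed here. TAATCC was found in 2 of these 6 promoters, those of Crx and Sag, and TAAGCC in 3, those of Nrl, Opn1sw and Sag. TGCTGAC was found in 2, those of Opn1sw and Pde6b, and CAATTAG in 2, those of Crx and Sag. Among all 32851 promoters of the same length, 6.25% held TAATCC, 8.20% TAAGCC, 3.81% TGCTGAC and 1.77% CAATTAG. The Crx promoter held TAATCC at 2 places, ending 88 and 15 bases before the start. In Pde6b the TGCTGAC match ended 1 base before the start. The Prph2 promoter held none of the 4 motifs in this window. None of the motifs share letters with one another in these 6 promoters. These matches describe letters and not bound sites, and the motifs were chosen with the genes already known.

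Read numbers are given for each library as they were worked back from the deposited means. On named genes there were 26104317 corneal and 21182025 limbal reads. Ratios were taken after division by the size factors behind the table, 1.03 for the cornea and 0.967 for the limbus. Intervals are exact Clopper-Pearson intervals at the 95% level, and the only error in them is that of counting reads. Amplified reads that carry no molecular identifier do not stand for separate molecules, so the intervals can be too narrow. Known markers were compared between the 2 libraries. Krt12, the keratin of differentiated corneal epithelium, had 1137735 corneal and 233324 limbal reads, and Krt15, a keratin of the limbal basal layer, had 37738 and 353826. Each of 4 cornea markers had the higher level in the cornea, Krt5 by only 1.32-fold, and each of 3 limbus markers in the limbus. The paper reports the same directions for the keratins among them, from the same data. The markers are thus no independent check of the labels. In pooled bulk tissue, fewer cells of a type and less RNA per cell cannot be told apart.

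The pigment gene of the list was Opn1sw, which encodes the short-wavelength cone opsin. It had 3 corneal and 33 limbal reads. This was the lowest read number of the 9 genes in either library, and the 11.8-fold difference had a wide interval of 3.69 to 59.9. Calu, a protein-coding gene on the opposite strand, overlaps Opn1sw on chromosome 6 (29376671 to 29388468, minus strand, GRCm38).

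Gnat1, the alpha subunit of rod transducin, had the most reads, 160 corneal and 1506 limbal. The difference was 10.1-fold (8.54 to 11.9), the narrowest interval of the 9 genes on the log2 scale. It made up 40.9% of the reads of the 9 genes in the cornea and 44.9% in the limbus. Without Gnat1 the other 8 genes summed to 231 and 1846 reads, a ratio of 8.54-fold (7.44 to 9.83). The summed ratio therefore did not rest on Gnat1 alone. Gnat1 lies on chromosome 9 (107674474 to 107679712, minus strand), where no other annotated gene overlaps it.

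Pde6a and Pde6b encode the catalytic subunits of the rod phosphodiesterase, the effector of transducin. Pde6b had 23 corneal and 192 limbal reads, an 8.92-fold difference (5.77 to 14.4). Pde6a had 41 and 209 reads, a 5.45-fold difference (3.88 to 7.81) that was the smallest of the 9. The intervals of the 2 subunits overlapped, and the difference between their ratios was not tested. On the opposite strand, Rps2-ps10, a pseudogene, overlaps Pde6a, and no gene overlaps Pde6b (chromosome 5, 108388391 to 108432397, plus strand).

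Sag and Rcvrn act in the shut-off of the response. Sag, the rod arrestin that caps the activated pigment, had 63 corneal and 478 limbal reads, an 8.11-fold difference (6.22 to 10.7). Rcvrn, the calcium sensor that restrains the pigment kinase, had 19 and 136 reads, a 7.65-fold difference (4.71 to 13.1). Both stood close to the sum of the 9 genes. Sag lies on chromosome 1 (87803680 to 87845158, plus strand) with no overlapping gene, and Rcvrn on chromosome 11 (67695326 to 67703333, plus strand), where Glp2r overlaps it on the opposite strand.

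Prph2, the tetraspanin that shapes the rims of outer segment discs, had 41 corneal and 493 limbal reads. Its difference of 12.8-fold (9.33 to 18.1) was the highest point value. Prph2 and Pde6a had the same read number in the cornea, while in the limbus Prph2 had 493 reads and Pde6a 209. Prph2 lies on chromosome 17 (46910459 to 46924933, plus strand).

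Nrl and Crx are the transcription factors of the list. Nrl, the leucine zipper factor that sets rod identity, had 23 corneal and 201 limbal reads, a 9.34-fold difference (6.05 to 15.1). Crx, the homeobox factor of rods and cones, had 18 and 104 reads, a 6.17-fold difference (3.72 to 10.8). Both factors were higher in the limbus, like the genes of the cascade. Nrl lies on chromosome 14 (55518978 to 55524981, minus strand) and Crx on chromosome 7 (15865947 to 15879968, minus strand), with no overlapping gene at either.

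**Figure D1:**
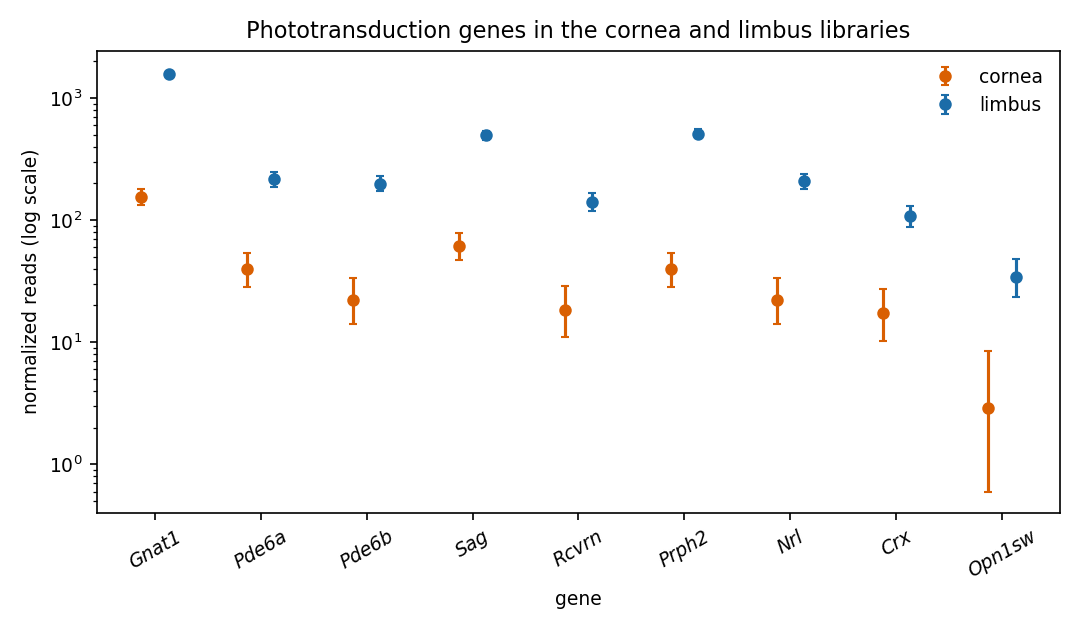
Normalized reads (log scale) of the 9 genes in the cornea library (orange) and the limbus library (blue), in the order Gnat1, Pde6a, Pde6b, Sag, Rcvrn, Prph2, Nrl, Crx and Opn1sw. Points are the single library of each tissue and bars the exact 95% Poisson interval of its reads. The blue point is above the orange one for each gene, and bars of the same gene do not overlap.

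Beyond counting error, meaning that the interval of the ratio left out 1, 9 of the 9 genes had a limbal excess and 0 a corneal excess. For this count any library at or under 3 reads was taken as 3. Of all 15572 genes with more than 3 reads in at least 1 library, 34% had a limbal excess by the same rule and 36.5% a corneal one. At least 2-fold higher in the limbus were 9 of the 9 genes against 20.8% of all genes, and at least 2-fold higher in the cornea 0 of the 9 against 8.84%. Prph2 ranked 456 of the 15572 genes by ratio and Pde6a 1298. Thus 2.92% of all genes had a ratio above that of Prph2 and 8.33% one above that of Pde6a. The genes lay on the limbal side of the distribution, and not at its end.

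**Figure D2:**
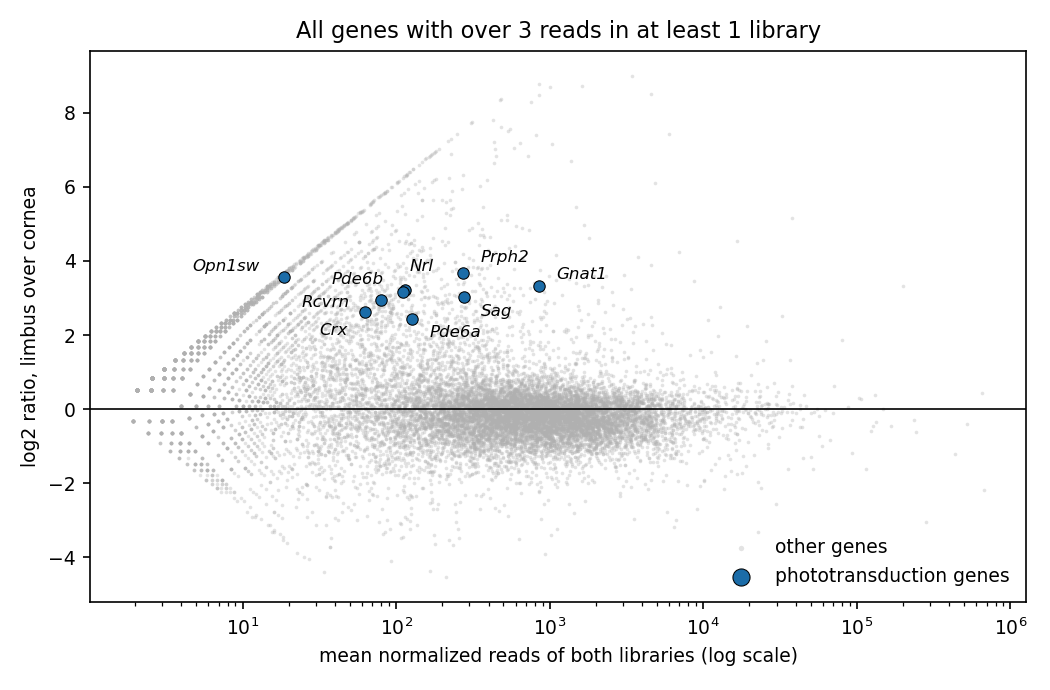
Log2 ratio of limbus over cornea against the mean normalized reads of both libraries (log scale) for the 15572 genes with more than 3 reads in at least 1 library. Grey points are other genes and blue points the 9 photoreceptor genes, which sit between 2.45 and 3.68 above a cloud centred near 0. Libraries at or under 3 reads are drawn as 3.

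Among themselves the genes varied little in ratio. Their log2 ratios ran from 2.45 (1.96 to 2.97) for Pde6a to 3.68 (3.22 to 4.18) for Prph2. Of the 36 pairs that can be formed, 34 had overlapping intervals. The 2 pairs that did not overlap were Pde6a with Prph2 and Pde6a with Gnat1. Overlap does not show that ratios are equal, and for Opn1sw the interval of 1.88 to 5.90 took in the whole range of the other genes.

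**Figure D3:**
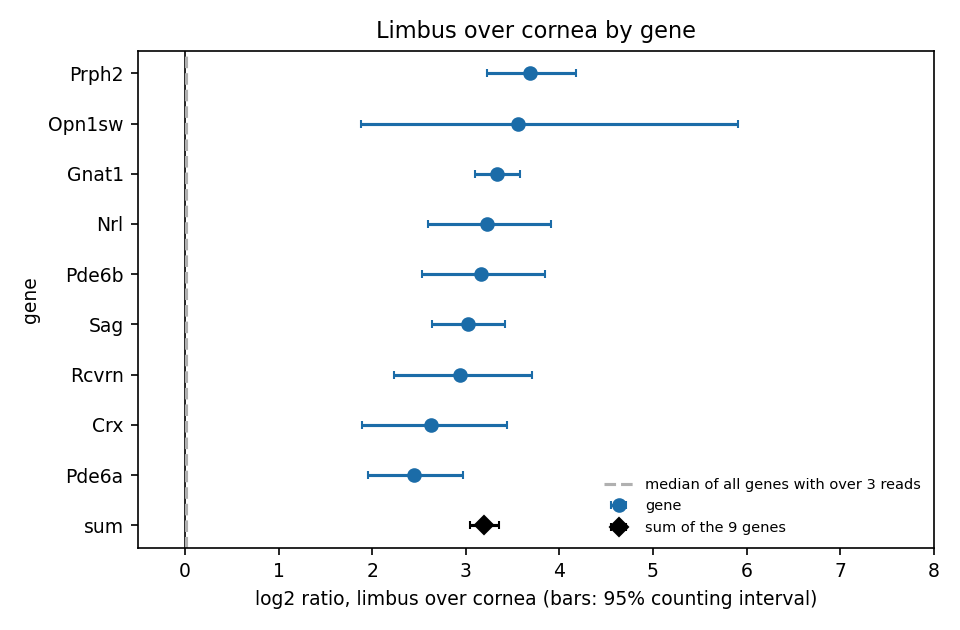
Log2 ratio of limbus over cornea for each of the 9 genes (blue), ordered by ratio, and for their sum (black). Bars are exact 95% intervals of counting error, the solid line marks 0 and the dashed line the median of all genes, 0.01. Every interval stands to the right of both lines, and the sum is at 3.20 (3.04 to 3.35).

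Levels were compared between genes as normalized reads per kilobase of the principal transcript. In the limbus Gnat1 was highest at 669 per kilobase, followed by Sag at 287, Prph2 at 191 and Rcvrn at 135. The intervals of these 4 genes did not overlap with those of their neighbours in the order. Nrl at 83.0 and Pde6b at 70.9 had overlapping intervals, as did Pde6a at 47.1 and Crx at 36.8. Such overlap does not show that levels are equal. Opn1sw was lowest at 14.2 per kilobase, below Crx beyond counting error.

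In the cornea the same scale again put Gnat1 first, at 66.5 per kilobase, and Sag next at 35.5. From Sag down to Crx, at 5.97, each gene overlapped with the next in the order. Rcvrn was at 17.7, Prph2 at 14.9, Nrl at 8.89, Pde6a at 8.64 and Pde6b at 7.95. Opn1sw was again lowest, at 1.20. The first 2 places and the last were thus held by the same genes in both tissues. In between, neighbours in the cornea order had overlapping intervals, and their differences in level were not tested.

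The rest of the pathway was described from lists of other photoreceptor genes, written by known function with earlier results of these data known. Of 51 listed genes, 50 were in the table and 49 had more than 3 reads in at least 1 library. Beyond counting error 41 of the 49 (83.7%) had a limbal excess, 3 a corneal excess and 5 neither. The median log2 ratio was 2.68, below that of the 9 genes. With libraries at or under 3 reads taken as 3, as for the calls, the ratios of 23 of the 49 fell within the range of the 9 genes, 3 above it (Cngb1, Pde6g and Gngt2) and 23 below it. The folds given below for genes with 1 to 3 corneal reads are those of the reads as found, and can stand above that range. Another annotated gene overlaps 20 of the 49, and the ratios of these 20 carry that limit. For 8 of them it is a protein-coding gene, in 2 cases (Mpp4 and Neurod1) on the same strand. Pseudogenes overlap Cnga1, Cngb3 and Rp1 on the same strand.

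In the list of other phototransduction genes, 19 of 25 had a limbal excess, 3 a corneal one and 3 neither, with a median log2 ratio of 2.77. Summed over the list the sign turned, to -0.12, with 13743 corneal and 11845 limbal reads. Gnb1, the beta subunit of rod transducin, which is made in many cell types, held 10922 and 8206 of these reads. Its level was 1.25-fold higher in the cornea. The sum therefore mostly gives Gnb1.

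Of the remaining transducin genes, Gngt1, the rod gamma subunit, had 25 corneal and 160 limbal reads, a 6.84-fold difference (4.47 to 10.9). The cone subunits were on the limbal side as well. Gnat2, the cone alpha subunit, had 5 and 23 reads (4.92-fold, 1.83 to 16.6), and Gnb3, the cone beta subunit, had 8 and 55 (7.35-fold, 3.48 to 17.9). Gngt2, the cone gamma subunit, had 5 and 131 reads, a 28.0-fold difference (11.7 to 87.7) that was the highest of the list. The protein-coding gene Abi3 overlaps Gngt2 on the opposite strand and itself had 1 corneal and 73 limbal reads. Its part in the Gngt2 ratio was not tested.

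Pde6g, the inhibitory subunit of the rod phosphodiesterase, had 18 corneal and 244 limbal reads, a 14.5-fold difference (8.97 to 24.9). All 3 rod subunits of the enzyme were thus higher in the limbus. Of the cone subunits, Pde6c had 1 and 13 reads (13.9-fold, 2.09 to 590.4) and Pde6h had 9 and 10 reads, a ratio of 1.19 (0.434 to 3.30) that was not beyond counting error. Arhgdib overlaps Pde6h on the opposite strand. Aipl1, a chaperone of the phosphodiesterase, had 15 and 95 reads (6.77-fold, 3.90 to 12.6).

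The rod channel genes had a limbal excess. Cnga1 had 11 corneal and 76 limbal reads (7.38-fold, 3.90 to 15.4), and Cngb1 had 10 and 121 (12.9-fold, 6.79 to 27.6). Slc24a1, the rod exchanger of sodium, calcium and potassium, had 19 and 131 reads (7.37-fold, 4.53 to 12.6). The cone channel genes had none. Cngb3 had 56 corneal and 6 limbal reads, 8.73-fold higher in the cornea, and Cnga3 had 0 and 3 reads, too few for a ratio. The pseudogene Gm11877 overlaps Cngb3 on the same strand, and its part in that ratio was not tested.

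Genes of recovery were mostly on the limbal side. Grk1, the pigment kinase, had 17 corneal and 154 limbal reads (9.68-fold, 5.85 to 17.0), and Arr3, the cone arrestin, had 1 and 25 (26.7-fold, 4.37 to 1097). Rgs9, which speeds the switch-off of transducin, had 19 and 147 reads (8.27-fold, 5.11 to 14.1), and its anchor Rgs9bp had 14 and 92 (7.02-fold, 3.98 to 13.3). Their partner Gnb5 had 249 and 227 reads, a ratio of 0.974 (0.810 to 1.17). Pdc, which binds the transducin beta and gamma subunits, had 33 and 215 reads (6.96-fold, 4.81 to 10.4).

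The guanylate cyclases that restore cyclic GMP were higher in the limbus. Gucy2e had 7 corneal and 58 limbal reads (8.85-fold, 4.04 to 23.0), and Gucy2f had 4 and 18 (4.81-fold, 1.58 to 19.5). Their activators differed from them and from each other. Guca1a had 1886 corneal and 864 limbal reads, 2.04-fold higher in the cornea, and Guca1b had 171 and 205 reads, a ratio of 1.28 (1.04 to 1.58). Unc119, a lipid-binding carrier of transducin, had 237 and 558 reads (2.52-fold, 2.16 to 2.94). Opn1mw, the middle-wavelength cone opsin, had 1 and 8 reads and was not called once the cornea was set to 3 reads.

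Of the other genes of photoreceptor structure and identity, 22 of 24 were higher in the limbus and 2 were neither, with a median log2 ratio of 2.42. Rom1, the partner of Prph2 in disc rims, had 104 corneal and 387 limbal reads, a 3.98-fold difference (3.19 to 4.99), below the interval of Prph2. Rbp3, the retinoid carrier between photoreceptors and pigment epithelium, had 41 and 440 reads (11.5-fold, 8.32 to 16.2), and Abca4, the retinoid transporter of the discs, had 20 and 180 (9.62-fold, 6.05 to 16.1). Prom1, made also by epithelial cells, had 3882 and 4533 reads, a ratio of only 1.25 (1.20 to 1.30), and Cdhr1 had 287 and 674 (2.51-fold, 2.18 to 2.89).

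Genes of the cilium and cytoskeleton of the outer segment showed a spread of ratios. Tulp1 had 14 corneal and 146 limbal reads (11.1-fold, 6.43 to 20.9), Rp1 had 15 and 70 (4.99-fold, 2.83 to 9.38), and Rp1l1 had 7 and 42 (6.41-fold, 2.85 to 16.9). Fscn2, an actin bundler, had 10 and 51 reads (5.45-fold, 2.74 to 12.04). Rpgrip1 had 68 and 164 reads, a lower ratio of 2.58 (1.93 to 3.47), and Supt16 overlaps it on the opposite strand. The interval of Rpgrip1 did not reach that of Tulp1.

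Retinoid, matrix and synapse genes had few reads. Rdh12, a retinol dehydrogenase, had 27 corneal and 132 limbal reads (5.22-fold, 3.43 to 8.22), and Rdh8 had 1 and 12 (12.8-fold, 1.90 to 548.2). The matrix proteoglycans Impg1 and Impg2 had 1 and 24 reads (25.6-fold, 4.18 to 1055) and 11 and 30 reads (2.91-fold, 1.42 to 6.45). All 4 passed the limit of counting error, though the intervals of Rdh8 and Impg1 are very wide. Kcnv2, a potassium channel subunit, had 4 and 30 reads (8.01-fold, 2.82 to 31.3), Cabp4, a synaptic calcium-binding protein, had 3 and 23 (8.19-fold, 2.48 to 42.6), and Mpp4, a synaptic scaffold, had 7 and 50 (7.63-fold, 3.44 to 19.96).

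Regulators other than Crx and Nrl were split. Nr2e3, the nuclear receptor that keeps cone genes off in rods, had 10 corneal and 64 limbal reads (6.84-fold, 3.49 to 14.9), and Otx2 had 4 and 32 (8.55-fold, 3.03 to 33.3). Samd7 had 1 and 11 reads (11.8-fold, 1.71 to 506.0), Samd11 had 11 and 70 (6.80-fold, 3.58 to 14.2) and Rorb had 5 and 14 (2.99-fold, 1.02 to 10.6). These 5 were called higher in the limbus, Rorb barely. Neurod1, with 10 and 20 reads (2.14-fold, 0.955 to 5.11), and Thrb, with 291 and 318 (1.17-fold, 0.993 to 1.37), were not.

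Markers of other cells of the retina were counted in the same libraries. Of the retinal pigment epithelium list, 7 of 9 genes had a limbal excess and 0 a corneal one, with 177 corneal and 869 limbal reads in sum and a median log2 ratio of 2.92. Its most counted genes were Rgr with 25 and 177 reads, Stra6 with 7 and 185, and Rlbp1 with 22 and 169. Best1, with 38 and 54 reads, and Rrh were called in neither direction. Most pigment epithelium markers thus moved with the photoreceptor genes, and their part in the result was not tested. The lists share genes, as Rgr and Rrh are also among the opsins that follow and Rlbp1 is also in the Müller glia list. For the non-photoreceptor opsins, 2 of 5 had more than 3 reads in a library. Of these Rgr was higher in the limbus and Rrh, with 50 and 40 reads, was neither. Opn3 had 2 reads in each library.

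Neural lists of the retina differed from one another. Their median log2 ratios were 3.28 for ganglion cells, 1.68 for bipolar cells, 1.12 for amacrine and horizontal cells and 0.55 for Müller glia. For comparison, a limbal excess was called in 34% of the 15572 genes and a corneal excess in 36.5%. Whether the counts of these short lists differ from such shares was not tested. Of the ganglion cell list 4 of 5 tested genes were higher in the limbus (410 corneal and 997 limbal reads). Rbpms had 385 and 674 reads, Nefm 0 and 152 and Sncg 13 and 118. Pou4f1, with 9 and 5 reads, was called in neither direction, and Pou4f2 and Slc17a6 were at 0 in both libraries. Bipolar markers gave 3 of 7 with a limbal excess and 1 with a corneal one (440 and 641 reads). Trpm1 had 347 and 535 reads and Gng13 85 and 23, and Vsx1 was at 0 in both. Among amacrine and horizontal markers 2 of 4 were higher in the limbus (1129 and 1631 reads), with Slc6a9 at 662 and 894, Tfap2b at 466 and 720 and Gad1 at 0 and 9, and Chat, Lhx1 and Onecut1 at 0 in both. The Müller glia list gave 3 of 8 in each direction (40493 and 26717 reads), with Glul at 30986 and 22570, Dkk3 at 8883 and 3503 and Abca8a at 426 and 213, all higher in the cornea. Those of the list that were higher in the limbus, named after their values were seen, were Rlbp1 with 22 and 169 reads, Car14 with 7 and 74 and Kcnj10 with 3 and 25. Genes such as Glul, Trpm1 and Nefm are also made outside the retina, and the part of these cells in the result was not tested.

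Markers of tissues next to the limbus moved with the photoreceptor genes as well. All 9 lens markers were higher in the limbus, with 1457 corneal and 11971 limbal reads and a summed log2 ratio of 3.13 (3.06 to 3.21) against 3.20 (3.04 to 3.35) for the 9 photoreceptor genes. Cryaa had 468 and 5423 reads, Crybb2 327 and 3147 and Cryba1 186 and 1374. Bfsp1, with 247 and 286 reads, was only 1.24-fold higher in the limbus. Of the pigment cell markers 6 of 7 were higher in the limbus (319 and 1614 reads), led by Dct with 183 and 710, Pmel with 82 and 439 and Tyrp1 with 35 and 266. The largest ratios were those of skeletal muscle, where 6 of 6 genes were higher in the limbus and 82 and 10085 reads gave a summed log2 ratio of 7.04 (6.72 to 7.37). Myh4 had 8 and 3126 reads, Tnnt3 5 and 1926 and Ckm 5 and 1653. The part of lens, pigment cells or muscle in the limbal excess of photoreceptor reads was not tested.

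The epithelial lists give the scale of the tissues themselves. Krt5, a basal keratin, had 614126 corneal and 433918 limbal reads, and Aldh3a1, the corneal crystallin, had 634936 and 255152. Krt14 had 9952 and 53574 reads and Krt19 1417 and 30740. The log2 ratio of Krt15, 3.32, was close to that of the summed photoreceptor genes, while its reads in each library were far more numerous.

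**Figure D4:**
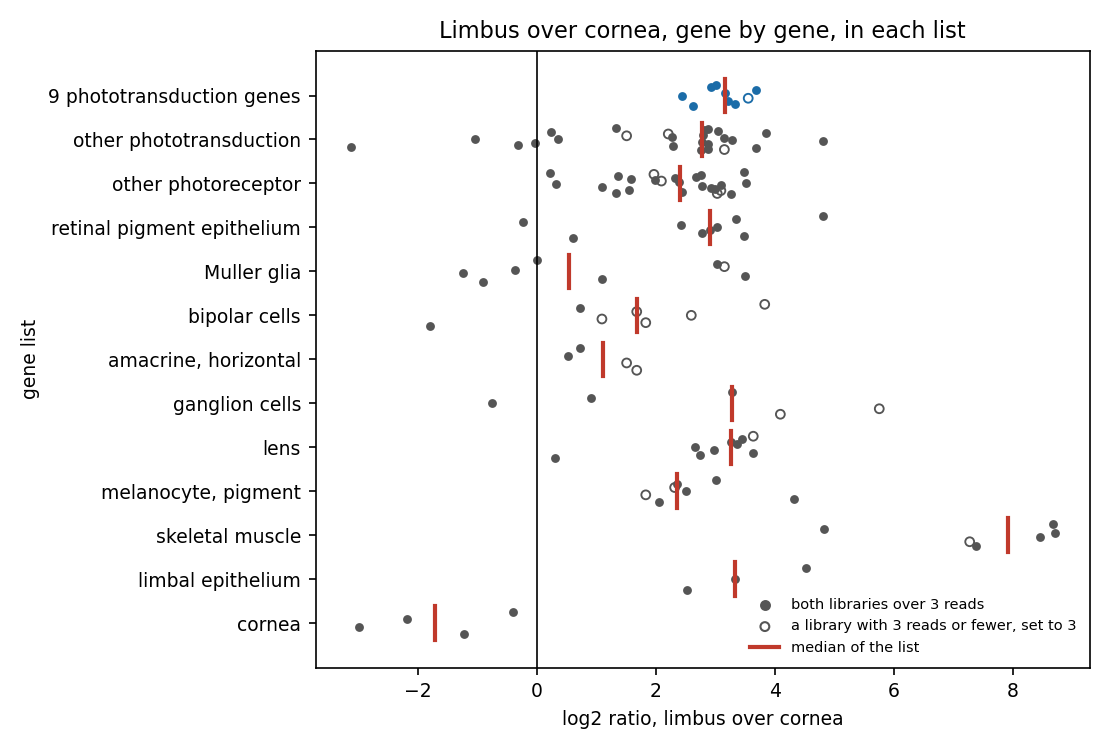
Log2 ratio of limbus over cornea for each gene of the 9 photoreceptor genes (blue) and of 12 further lists (grey), the non-photoreceptor opsins not being drawn, with the median of each list in red. Open circles are genes with 3 reads or fewer in a library, which was set to 3. The medians stand at 3.16 for the 9 genes, 2.77 and 2.42 for other photoreceptor genes, 2.92 for pigment epithelium and 3.28 for ganglion cells. They are 1.68 for bipolar cells, 1.12 for amacrine and horizontal cells and 0.55 for Müller glia. Outside the retina they are 3.26 for lens, 2.35 for pigment cells, 7.92 for skeletal muscle, 3.32 for limbal epithelium and -1.70 for the cornea.

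Among 2345 other genes with at least as many reads as the 9 genes together, those nearest to the summed log2 ratio of 3.20 were picked by distance alone. They were Ifitm3, an interferon-induced membrane protein, with 528 and 4433 reads (3.17), Mgp, the matrix Gla protein, with 672 and 5944 (3.24), Cd74, the invariant chain of antigen presentation, with 413 and 3823 (3.31), Krt15 (3.32) and Prelp, a matrix proteoglycan, with 493 and 3533 (2.94). The first 4 lay within the interval of the sum. With 1 library of each tissue the likeness rests on a single ratio.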

How the data were processed

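Stranded total RNA libraries of the pooled tissues were sequenced. Per the paper's methods, adaptors were trimmed and reads mapped with CLC Genomics Workbench to GRCm38 (mm10), and values were normalized by trimmed means of M-values. Whether counting used strand is not given in the sources used here. The authors deposited 1 table of 40904 rows with the mean normalized signal of 2 libraries and the shrunken log2 fold change between tissues. The standard error of the fold change is also given, on the log2 scale. The column label does not name the direction of the fold change, which was read here as cornea over limbus. All cornea and limbus reads rest on this reading. With it, the keratins named above lie on the sides that the paper reports. The table also holds p-values and adjusted p-values of the authors' comparison, which were not used. The fold change and standard error served only to choose between read pairs. Rows without a gene name, 17484 (42.7%), were left out.

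Reads were worked back from the means, which move in steps of 1 read divided by a size factor. The mean allowed 1 pair for 6143 of 17442 genes with reads and several for 11299. The pair whose predicted fold change and standard error came closest was taken, and all 17442 met both within 0.001 in sum, 19 of them only with the unshrunken dispersion of the gene. The method was tested on simulated data made with the same model and its fitted settings. Such a test cannot show that the model of the deposited values is right. The reads given are thus derived, since no table of counts was used.

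Ratios are limbus over cornea with exact Clopper-Pearson intervals. A library at 0 reads was set to 3. A gene was called where the interval, with libraries of 3 reads or fewer set to 3, left out a ratio of 1. Positions and transcript lengths came from GENCODE M21. The genes, lists, motifs and rules were chosen with earlier results of these data known. All listed photoreceptor genes with more than 3 reads in at least 1 library, the 3 genes with the most reads of each other list and the 5 nearest in ratio are named, apart from 1 bipolar cell marker that is not reported here. The design had allowed for counts per sample, which the table does not hold. Other scalings, a pseudocount of 1 and the next best read pair were tried. Python 3.11.15, numpy 2.4.6, scipy 1.17.1 and pandas 2.3.3 were used.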

Additional observations from a re-analysis of the deposited data

How the results depend on the processing

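All 9 genes stayed higher in the limbus beyond counting error and at least 2-fold under scaling to total reads, under the trimmed mean of M-values, with a limit of 10 reads and with no filter. Scaling to total reads added 0.21 to every log2 ratio, so the sum of the 9 genes moved to 3.40 and the median of the other photoreceptor genes to 2.89, and the trimmed mean of M-values added 0.02. Of the other photoreceptor genes 43 and 42 were higher in the limbus under these scalings and 37 with a mean of at least 10, and 3 were higher in the cornea in each case. With a pseudocount of 1 the log2 ratios of the 9 genes ran from 2.42 to 3.65. The next best pair of reads turned the sign for Pde6a (-0.39), Pde6b (-0.46), Rcvrn (-1.82), Nrl (-0.32) and Crx (-5.89) and moved Gnat1 to 5.07, Sag to 1.22 and Prph2 to 1.48. By construction such a pair keeps the mean and misses the deposited fold change and standard error, by 0.0843 or more in sum, against 0.000136 or less for the pairs used.

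No paired analysis was possible because the numbered samples have no values of their own in the table, and leaving out replicates was not run for the same reason. With 1 library of each tissue, variation between animals and dissections is unknown. Depth limits Opn1sw, with 3 reads in the cornea, and the cone genes with 1 read there.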
